A study of Mus musculus with 25 samples.

Results

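Tim4+ macrophages of mouse white adipose tissue were compared with blood monocytes by RNA sequencing of sorted cells. The comparison took 17 of the 25 libraries of the series: all 8 libraries of the 2 Tim4+ gates against all 9 monocyte libraries, with the diets pooled. The first Tim4+ gate, pop1, held cells with low MHCII on the surface, and the second, pop2, held cells with high MHCII; each gate had 2 libraries from mice on a high fat diet (HFD, 45% fat) and 2 from mice on a control diet (CD, 10% fat). Monocytes were sorted from blood on CD115 and Ly6C, with 3 HFD and 6 CD libraries. In their titles some monocyte CD libraries are marked CD and the others CD-CD, as are all adipose CD libraries. What sets these title series apart is not given, and both were treated as control diet. All mice were C57BL6, and each library was made from 200 cells sorted straight into lysis buffer. The remaining 8 libraries held Tim4- macrophages of the same tissue, either CD11c- (pop3) or CD11c+ (pop4), with 4 libraries each, and they enter only where named.

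Several features of the design limit the comparison. Cells were freed from the fat by collagenase with flavopiridol, a drug that stops transcription, added, and no such step is described for blood, so cell type, tissue of origin and handling cannot be told apart. Whether a library stems from 1 mouse or from several is not given, nor is the length of the diets, and the p-values therefore measure the spread between libraries, which may be partly technical. In bulk samples of this kind, fewer cells of a type and less RNA per cell cannot be told apart.

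Monocytes leave the bone marrow, circulate for a few days, and can enter tissues and become macrophages there. Classical monocytes carry high Ly6C and the chemokine receptor CCR2, and non-classical monocytes patrol vessel walls and depend on the receptor CX3CR1. Many tissues also hold resident macrophages that were seeded early in life and renew themselves locally. In fat and other tissues these cells are known for the phosphatidylserine receptor Tim4 (gene Timd4), for the hyaluronan receptor LYVE1, and for scavenging, clearing dead cells and supplying growth factors. The title of the series concerns adipose resident macrophages, the formation of fat cells and energy storage.

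Library totals ran from 3.75 to 6.63 M counts in Tim4+ macrophages and from 6.5 to 9.34 M in monocytes. A floor of 3 counts stood at 0.453 to 0.799 CPM (counts of a gene scaled to a common library size) in Tim4+ macrophages and at 0.321 to 0.461 CPM in monocytes, and levels under it cannot be told from 0. All levels below are CPM scaled for library composition, with means ± SD over 8 Tim4+ and 9 monocyte libraries, and differences are log2 values of Tim4+ macrophages minus monocytes with their standard error (SE). A fitted log2 difference against a group under the floor depends on the small count that the fit adds, so the levels carry the comparison there. Log2 levels correlated across genes, which are not independent replicates, at 0.912 to 0.944 between monocyte libraries, at 0.809 to 0.863 between the libraries of a Tim4+ group, and at 0.687 to 0.785 between Tim4+ and monocyte libraries.

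Of 15598 genes tested with edgeR's quasi-likelihood test, 6935 (44.5%) passed a Benjamini-Hochberg adjusted p of 0.05, of which 4274 (27.4%) were higher and 2661 (17.1%) were lower in Tim4+ macrophages. These shares are the background against which each gene group below is read. The groups and their members were chosen with earlier results of these data known, so their counts describe the lists and test nothing. The 8 Tim4+ libraries lay wholly above the 9 monocyte libraries for 1047 genes (6.71%) and wholly below them for 807 genes (5.17%). The median log2 difference over all genes tested was 0.19, and it was 0.34 to 0.36 when libraries were scaled by upper quartiles, by DESeq2 size factors or by their totals. Of the genes called higher, 2240 averaged under 5 CPM in Tim4+ macrophages, whereas 106 of the genes called lower averaged under 5 CPM in monocytes. Receptor genes for odours and pheromones, which neither cell type is known to use, showed the same tilt: 42 of 51 tested were called higher, 3 lower, and their sum was 245 to 686 CPM in Tim4+ libraries and 93.1 to 256 CPM in monocytes. With that sum as a covariate, 642 genes were called higher and 578 lower. The sum nearly followed cell type, so this fit can hardly separate them, and a lost call need not mean a smaller difference. Of the gene groups below, 20 of 23 resident macrophage genes then passed upward, 10 of 17 complement genes, 9 of 18 chemokine ligands and 6 of 23 growth factors, while 11 of 20 classical monocyte genes and 5 of 31 interferon-induced genes passed downward. The median log2 differences of these groups with the covariate were, in the order named, 7.33, 4.53, 3.25, 1.69, -5.1 and -1.06. Without it they were 7.43, 3.23, 3.36, 2.72, -4.98 and -1.3. Among the 238 genes that the naming rule selected, 74 lost their call with the covariate, and Gata6 and Lcn2 changed direction. Those of the 238 described below that lost it were Cd74, Itgax, Csf1r, Cd68, Nr4a1, Cd300lf, Clu, Gdf3, Cxcl10, S1pr1, F13a1, Usp18, H2-DMa, Tap1, Hp, Clec4e, Fcgr1, Entpd1, P2ry1, Tgfb2, Alox15, Fn1, Mki67, Egr2 and Cd3g. Genes described below from outside the naming rule are not covered by this list and may have lost their call too, other interferon-induced genes among them.

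**Figure D1:**
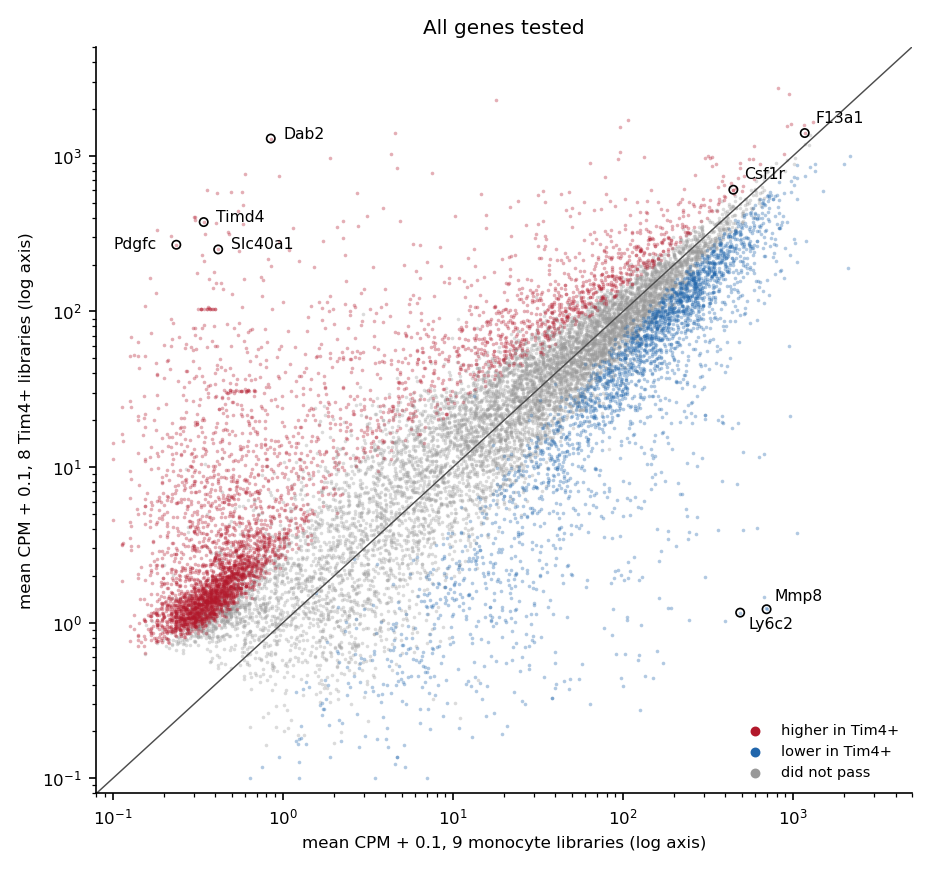
Mean level of each gene tested (CPM + 0.1, log axes), with 8 Tim4+ libraries on the vertical axis and 9 monocyte libraries on the horizontal axis; red marks genes called higher in Tim4+ macrophages, blue genes called lower, and grey the rest. Timd4, Pdgfc, Dab2 and Slc40a1 sit at the left edge, under 1 CPM in monocytes, while Ly6c2 and Mmp8 sit near 1 CPM in Tim4+ macrophages and above 400 CPM in monocytes.

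The genes behind the sort came first, as a check of the labels, together with Lyve1, a resident macrophage marker that none of the described gates used. Timd4 (chromosome 11, 46810799 to 46844333, plus strand, mm10), which gives the Tim4 receptor its name, had a lowest, median and highest level of 89.6, 429 and 628 CPM in Tim4+ libraries, against 0, 0.123 and 0.737 CPM in monocytes. The groups did not overlap, and within the Tim4+ cells the 2 pop2 HFD libraries, at 89.6 and 104 CPM, were the lowest. The log2 difference was 10.66 (SE 0.45, adjusted p = 2.4e-12). Lyve1 (chromosome 7, 110850607 to 110862953) was at 580, 760 and 1080 CPM in Tim4+ libraries and at 0.114, 0.614 and 1.13 CPM in monocytes, a log2 difference of 10.57 (SE 0.33, adjusted p = 3.27e-14). Ly6c2 (chromosome 15, 75108161 to 75111949), a gene of the Ly6C antigen, went the other way, with 0.183, 1.05 and 1.99 CPM in Tim4+ libraries and 425, 473 and 657 CPM in monocytes, a log2 difference of -9.07 (SE 0.24, adjusted p = 5.98e-15). Every Tim4+ library lay below every monocyte library for Ly6c2. The second gene of that antigen, Ly6c1, had 13.8 ± 23.3 CPM in Tim4+ macrophages and 5.08 ± 2.59 CPM in monocytes and did not pass (adjusted p = 0.833); it is also expressed by endothelial cells, and near-identical Ly6 genes may share reads.

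Csf1r encodes CD115, the receptor for the growth factor on which monocytes and macrophages depend. It was read in every library, at 605 ± 77.6 CPM in Tim4+ macrophages and 445 ± 42.2 CPM in monocytes, a log2 difference of 0.44 (SE 0.1, adjusted p = 0.0024). The call was lost when any one of 7 Tim4+ libraries was left out (all but pop2 HFD replicate 3), with adjusted p from 0.0769 to 0.173. When single libraries were left out the median log2 difference over all genes lay between 0.03 and 0.37, against 0.19 with all 17 libraries. Leaving out a Tim4+ library also loosened the expression filter, which then kept 17358 to 18289 genes, against 15598. Filter and scaling thus changed along with the library, and their parts in the lost call cannot be told apart. The integrin gene Itgax, which encodes CD11c, stayed low in both, at 1.23 ± 0.859 CPM in Tim4+ macrophages and 8.91 ± 7.12 CPM in monocytes, and its call rested on monocyte HFD replicate 1 (adjusted p = 0.00728 with it and 0.0969 without it). Of the other genes shared by mononuclear phagocytes, Adgre1 (F4/80) did not pass (509 ± 194 CPM in Tim4+ macrophages and 381 ± 53.7 CPM in monocytes, adjusted p = 0.0531). Spi1, which encodes the myeloid factor PU.1, was lower in Tim4+ macrophages, at 61.2 ± 23.2 CPM against 214 ± 49.1 CPM in monocytes, a log2 difference of -1.92 (SE 0.21, adjusted p = 1.7e-06). Mertk, a receptor tyrosine kinase used to tell macrophages from monocytes, was at 64 ± 47.1 CPM in Tim4+ macrophages and 0.284 ± 0.372 CPM in monocytes.

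**Figure D2:**
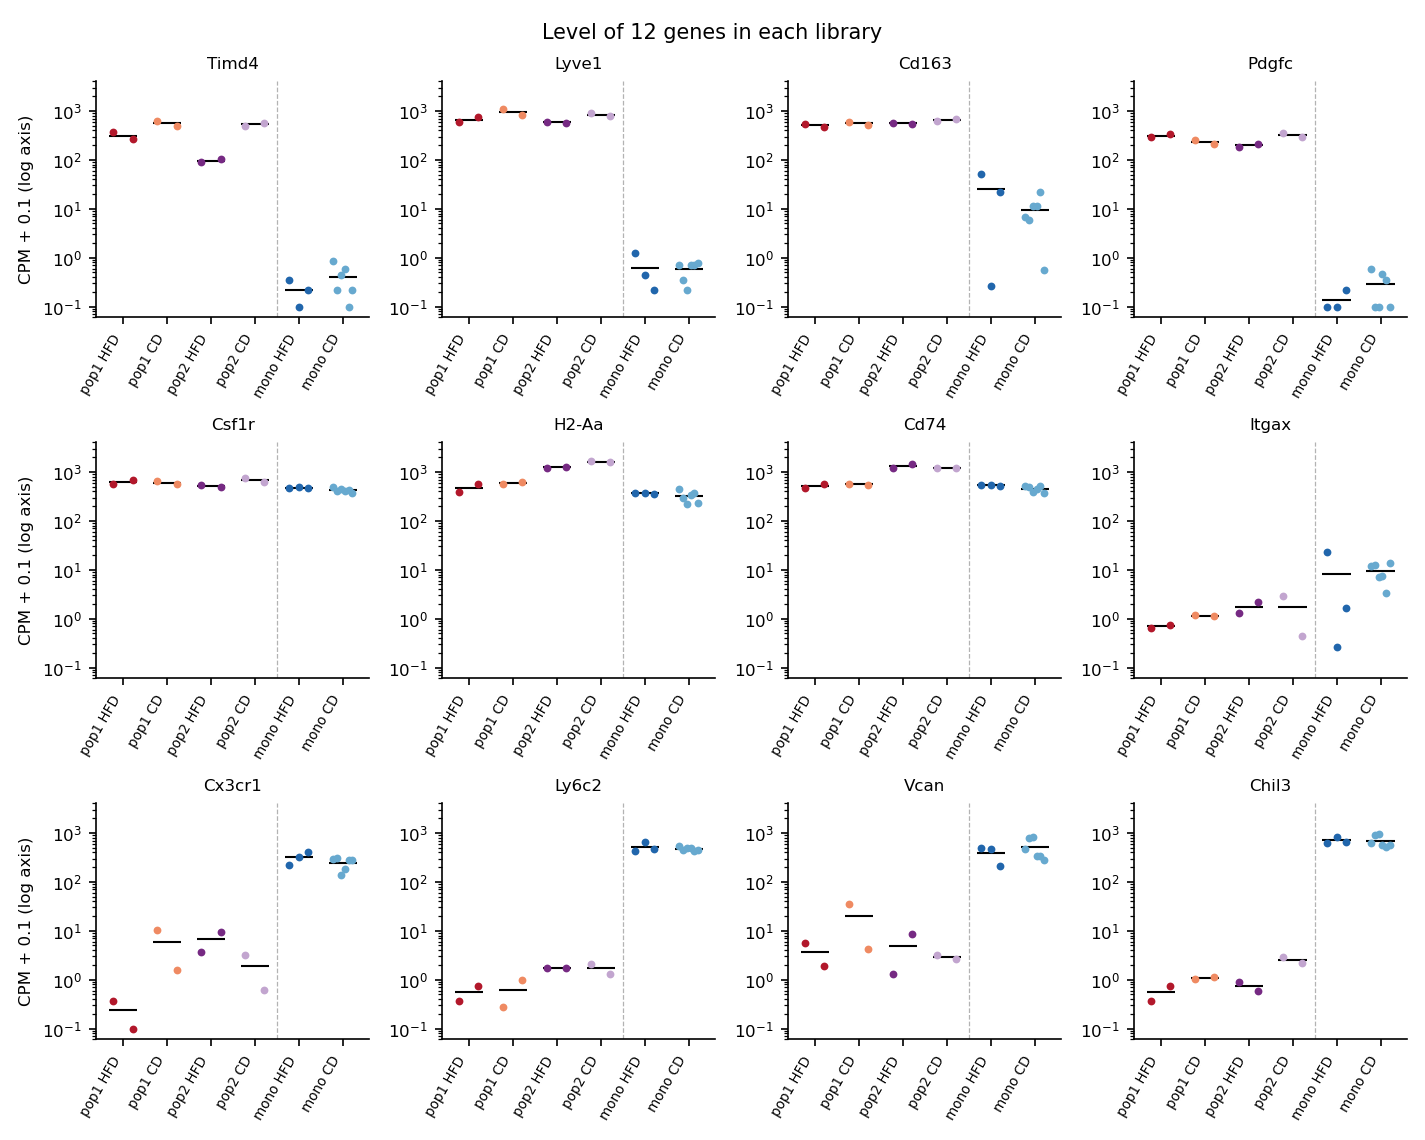
Level of 12 genes in each library (CPM + 0.1, log axis), grouped by gate and diet; each point is 1 library and each bar a group mean, with the 8 Tim4+ libraries left of the dashed line and the 9 monocyte libraries right of it. Timd4, Lyve1 and Pdgfc are at or under 1.13 CPM in every monocyte library, while Ly6c2 and Chil3 are under 3 CPM in every Tim4+ library.

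Among the gene lists, receptors and secreted proteins of resident macrophages had the largest median shift. All 23 of the 23 members tested were higher, with a median log2 difference of 7.43, and for 22 of them the libraries did not overlap. Against the Tim4- macrophages of the same tissue, 2 members were higher in Tim4+ cells than in pop3 and 21 higher than in pop4, with 0 lower. Of all genes tested in those comparisons, 0.106% were higher than in pop3 and 11.2% higher than in pop4. Their summed level was 11700 to 14900 CPM in Tim4+ libraries and 992 to 1250 CPM in monocytes. Several of these genes, Timd4 and Lyve1 among them, are known markers of the sorted cells, so their direction is no independent evidence. The choice of members with earlier results known bears on the count and rank of this list as well. Cd163, the receptor for haemoglobin bound to haptoglobin, was at 472, 562 and 692 CPM in Tim4+ libraries and at 0.168, 11.2 and 52.1 CPM in monocytes, and differed by 5.34 (SE 0.66, adjusted p = 6.5e-06). The Tim4+ libraries lay close together for Cd163, whereas the monocyte libraries were spread widely, with monocyte HFD replicate 1 the highest. Vsig4, a complement receptor of resident macrophages, was at 9.98, 137 and 382 CPM in Tim4+ libraries, against 0, 0 and 0.336 CPM in monocytes. Among the Tim4+ libraries pop1 CD was highest for Vsig4, at 377 and 382 CPM, and pop2 HFD lowest, at 12.4 and 9.98 CPM. Cd209f and Cd209g, lectins of the DC-SIGN family, averaged 578 ± 59.4 and 405 ± 46.9 CPM in Tim4+ macrophages, against 0.312 ± 0.309 and 0.2 ± 0.203 CPM in monocytes; they are close copies of each other and may share reads. Of members outside the naming rule, chosen after their values were seen, the mannose receptor gene Mrc1 averaged 1540 ± 129 CPM in Tim4+ macrophages and 95.5 ± 39.8 CPM in monocytes. The folate receptor gene Folr2, picked likewise, averaged 738 ± 86.9 CPM in Tim4+ macrophages and 0.848 ± 1.8 CPM in monocytes.

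Among all genes, those with the largest fitted increase and no overlap between the groups were Cxcl13, Cxcl12, C1qa, Vsig4, Ccl7, Pdgfc, Pla2g2d, Dab2, Tceal1 and Cd209f. Dab2, an adaptor that carries receptors into clathrin-coated pits, was at 1040, 1210 and 1730 CPM in Tim4+ libraries and at 0.118, 0.737 and 1.23 CPM in monocytes. Pla2g2d, a secreted phospholipase, was at 141, 416 and 596 CPM in Tim4+ libraries and at 0, 0.123 and 0.74 CPM in monocytes. Tceal1, a gene of the transcription elongation factor A-like family, was less even: it stood at 1.29 CPM in pop1 HFD replicate 3 and 3.57 CPM in pop2 HFD replicate 3, at 48.4 to 136 CPM in the other 6 Tim4+ libraries, and at 0 to 0.124 CPM in monocytes. The 10 genes with the largest fitted decrease were Ly6i, Mmp8, Chil3, Sirpb1b, Gm9733, Ly6c2, Plac8, Gpr141, Stk26 and Klra2. Stk26, a kinase of the STE20 family, was at 0, 0.206 and 1.46 CPM in Tim4+ libraries and at 97.1, 131 and 230 CPM in monocytes. Gpr141, an orphan receptor, was at 0, 1.03 and 24.1 CPM in Tim4+ libraries and at 963, 1040 and 1190 CPM in monocytes. Klra2, a receptor of the Ly49 family, was at 0 to 17.4 CPM in Tim4+ libraries and at 535 to 717 CPM in monocytes; Sirpb1b was at 0 to 2.65 and 134 to 180 CPM in the same order. The Ly49 and SIRP families hold close copies that may share reads. For all 20 genes the libraries did not overlap, as the rule for naming them required.

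Complement genes were mostly higher in Tim4+ macrophages. Of 17 members tested, 12 were higher and 2 lower, with a median log2 difference of 3.23. The subunits of C1q, which opens the classical pathway and bridges dying cells to phagocytes, were led by C1qa, at 515, 575 and 730 CPM in Tim4+ libraries and 0, 0.236 and 0.627 CPM in monocytes, a log2 difference of 11.08 (SE 0.34, adjusted p = 2.59e-14). C1qb averaged 971 ± 148 CPM in Tim4+ macrophages and 1.79 ± 1.8 CPM in monocytes. C1qc averaged 1030 ± 96 CPM in Tim4+ macrophages and 4.21 ± 7.47 CPM in monocytes, and it was above 2 CPM in only 2 monocyte libraries, both HFD. C3, the central component of the cascade, was lower, at 13.6, 19.9 and 93.2 CPM in Tim4+ libraries and 198, 235 and 277 CPM in monocytes, with no overlap and a log2 difference of -2.85 (SE 0.32, adjusted p = 1.59e-06). The other member that fell was Clu, which encodes the extracellular chaperone and complement inhibitor clusterin, with 0.694 ± 0.35 CPM in Tim4+ macrophages and 12.8 ± 14.5 CPM in monocytes. Monocyte levels of Clu ran from 0 to 43.2 CPM, so its groups overlapped.

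Receptors and bridging molecules for the uptake of dying cells split in both directions, with 11 of 23 higher, 7 lower and a median log2 difference of 0.61. The higher ones included Timd4, the 3 C1q genes, Mertk and Gas6, which encodes the ligand that joins phosphatidylserine to MERTK and AXL. Gas6 was at 276, 435 and 630 CPM in Tim4+ libraries and at 0.227, 0.46 and 0.74 CPM in monocytes, a log2 difference of 9.79 (SE 0.29, adjusted p = 2.21e-14). Axl itself did not pass, with 136 ± 94.4 CPM in Tim4+ macrophages and 104 ± 54.7 CPM in monocytes. Cd36, a receptor for fatty acids, oxidized lipids and dying cells, was at 1050, 1620 and 2830 CPM in Tim4+ libraries and at 49.8, 106 and 154 CPM in monocytes, a log2 difference of 3.99 (SE 0.25, adjusted p = 7.99e-10). Havcr2, which encodes the related receptor Tim3, was lower, with 2.25 ± 2.53 CPM in Tim4+ macrophages and 39.7 ± 23.9 CPM in monocytes. Cd300lf, a receptor for phosphatidylserine and ceramide, was at 0.671 ± 0.487 CPM in Tim4+ macrophages and 28.9 ± 26.8 CPM in monocytes, and differed by -5.4 (SE 0.86, adjusted p = 9.29e-05).

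Growth factor genes were mostly higher in Tim4+ macrophages: 15 of 23 tested passed upward, 4 of them at averages under 5 CPM, and 1 passed downward, with a median log2 difference of 2.72. Pdgfc (chromosome 3, 81036416 to 81214031), whose protein acts on mesenchymal cells through the receptor PDGFRA, was at 187, 271 and 352 CPM in Tim4+ libraries and at 0, 0 and 0.492 CPM in monocytes. It was read in all 8 Tim4+ libraries, while 5 of 9 monocyte libraries had no count, and its log2 difference was 10.82 (SE 0.52, adjusted p = 2.08e-11). Pdgfa and Pdgfb code for other ligands of the family: Pdgfb passed, at 21.9 ± 13.1 CPM in Tim4+ macrophages and 4.74 ± 4.95 CPM in monocytes, and Pdgfa, at 11.9 ± 10.9 and 1.99 ± 3.19 CPM in the same order, did not (both were picked after their values were seen). Bmp2, a bone morphogenetic protein, was at 70.9, 101 and 203 CPM in Tim4+ libraries and at 0, 0 and 0.125 CPM in monocytes, a log2 difference of 10.65 (SE 0.55, adjusted p = 5.13e-11). Kitl, whose protein (stem cell factor) binds KIT, was at 220, 318 and 602 CPM in Tim4+ libraries and at 0, 0.248 and 0.627 CPM in monocytes, a log2 difference of 10.23 (SE 0.42, adjusted p = 1.97e-12). Igf1, an insulin-like growth factor named after its values were seen, averaged 1410 ± 302 CPM in Tim4+ macrophages and 4.47 ± 6.1 CPM in monocytes. Tgfb2, a transforming growth factor, was read mainly in pop1, at 17.6 to 193 CPM there, 0.441 to 2.14 CPM in pop2 and 0 to 0.864 CPM in monocytes. Gdf3, a factor of the same superfamily, was the member that fell, with 1.5 ± 1.39 CPM in Tim4+ macrophages and 19.1 ± 14.8 CPM in monocytes.

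Matrix and protease genes moved in both directions, with 13 of 24 higher and 5 lower. The gelatinase gene Mmp9 was at 40.4, 159 and 324 CPM in Tim4+ libraries and at 0, 0.345 and 1.11 CPM in monocytes, a log2 difference of 8.34 (SE 0.56, adjusted p = 2.3e-09). The collagenase gene Mmp8 was at 0.408, 0.841 and 3.33 CPM in Tim4+ libraries and at 507, 705 and 910 CPM in monocytes, a log2 difference of -9.36 (SE 0.32, adjusted p = 1.25e-13). Neither gene's groups overlapped, so the cell types differed in which enzyme's RNA they held. Mmp13, another collagenase, was at 0.681 to 6.63 CPM in pop1, 3.33 to 47.7 CPM in pop2 and 0 to 0.627 CPM in monocytes. The proteoglycan versican (Vcan) and the urokinase receptor (Plaur) were lower, with 7.73 ± 11.4 and 21.4 ± 24.3 CPM in Tim4+ macrophages against 468 ± 213 and 303 ± 52.8 CPM in monocytes.

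Chemokine ligands were higher for 12 of 18 members and lower for 2, with a median log2 difference of 3.36. Cxcl12, which retains cells that carry CXCR4, was at 180, 315 and 429 CPM in Tim4+ libraries and at 0, 0.123 and 0.345 CPM in monocytes, a log2 difference of 11.13 (SE 0.39, adjusted p = 1.25e-13). Ccl7, a ligand of CCR2, was at 280, 422 and 501 CPM in Tim4+ libraries and at 0, 0.125 and 0.503 CPM in monocytes, a log2 difference of 10.88 (SE 0.39, adjusted p = 1.92e-13). Cxcl13, which draws B cells, was at 3.8, 262 and 823 CPM in Tim4+ libraries and at 0, 0 and 0.248 CPM in monocytes. Its Tim4+ levels were spread widely, from 3.8 CPM in pop2 HFD replicate 2 to 823 CPM in pop2 CD replicate 7, and all stood above monocytes. Cxcl10, an interferon-induced chemokine, went down, with 12.9 ± 27.9 CPM in Tim4+ macrophages and 194 ± 62.3 CPM in monocytes; 6 Tim4+ libraries were under 1 CPM, pop1 HFD replicate 2 was at 21 CPM and pop2 CD replicate 8 at 79.7 CPM. Its log2 difference of -4.2 (SE 1.03, adjusted p = 0.00375) was -6.64 without pop1 HFD replicate 2 and -7.38 without pop2 CD replicate 8.

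Receptors for attractants and adhesion molecules moved mostly the other way, with 6 of 26 higher, 17 lower and a median log2 difference of -1.97. Cx3cr1, the fractalkine receptor of non-classical monocytes and many tissue macrophages, was at 0, 2.27 and 10.3 CPM in Tim4+ libraries and at 141, 280 and 405 CPM in monocytes, a log2 difference of -6.28 (SE 0.7, adjusted p = 1.67e-06). Cd177, an adhesion molecule best known from neutrophils, was at 1.15 ± 1.21 CPM in Tim4+ macrophages and 184 ± 31.8 CPM in monocytes. Ccr2, the receptor for monocyte exit from marrow and named after its values were seen, still stood at 2.47, 172 and 541 CPM in Tim4+ libraries, against 1710, 2180 and 2340 CPM in monocytes. Among the few that rose were the sphingosine-1-phosphate receptor S1pr1, the chemerin receptor Cmklr1 and the integrin Itga9. S1pr1 averaged 271 ± 69 CPM in Tim4+ macrophages and 5.71 ± 10.5 CPM in monocytes, Cmklr1 averaged 101 ± 32.8 and 1.77 ± 1.08 CPM in the same order, and Itga9 averaged 47.7 ± 23.8 and 0.54 ± 0.509 CPM. Itgam (CD11b) did not pass, at 472 ± 108 CPM in Tim4+ macrophages and 442 ± 47.1 CPM in monocytes.

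Classical monocyte genes were low in Tim4+ macrophages. The monocytes were sorted on Ly6C and the list holds known markers of such cells, so its direction is no independent evidence. Of 20 tested, 17 were lower and 1 higher, with a median log2 difference of -4.98 and summed levels of 1820 to 2850 CPM in Tim4+ libraries and 9430 to 12600 CPM in monocytes. Chil3, a chitinase-like secreted protein, was at 0.272, 0.858 and 2.87 CPM in Tim4+ libraries and at 510, 633 and 947 CPM in monocytes, a log2 difference of -9.33 (SE 0.31, adjusted p = 1.01e-13). Plac8, a small cysteine-rich protein, was at 0.136, 0.678 and 5.74 CPM in Tim4+ libraries and at 553, 651 and 958 CPM in monocytes, a log2 difference of -9.1 (SE 0.5, adjusted p = 1.39e-10). Ly6i was read at 0 to 0.485 CPM in Tim4+ libraries and at 93.7 to 177 CPM in monocytes. Hp, which encodes haptoglobin, and Fn1, which encodes fibronectin, were less clear-cut within the Tim4+ cells. Fn1 stood at 124 to 683 CPM in pop1 and 14 to 233 CPM in pop2, against 810 to 1060 CPM in monocytes. Hp stood at 0.324 to 54.5 CPM in Tim4+ libraries and 264 to 466 CPM in monocytes. The member that passed upward was F13a1, a clotting factor subunit, at 1400 ± 88.5 CPM in Tim4+ macrophages and 1170 ± 139 CPM in monocytes. Its log2 difference was 0.25. This call was lost without any one of the 8 Tim4+ libraries, monocyte CD replicate 2 or monocyte HFD replicate 3. The log2 differences were then 0.02 to 0.16. Without a Tim4+ library the filter loosened too, as for Csf1r above.

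Non-classical monocyte genes were low as well, with 10 of 14 lower and none higher under the threshold. This list too holds known monocyte markers, so its direction is no independent evidence. Treml4, a receptor of the TREM family, was at 0, 0.455 and 1.43 CPM in Tim4+ libraries and at 51.7, 81.5 and 180 CPM in monocytes, a log2 difference of -7.6 (SE 0.57, adjusted p = 9.62e-09). Pglyrp1, a peptidoglycan-binding protein, was under 1 CPM in 7 Tim4+ libraries and at 7.13 CPM in pop1 CD replicate 8, against 59.9 to 137 CPM in monocytes. Nr4a1, the nuclear receptor on which non-classical monocytes depend, was at 0.408, 16 and 78 CPM in Tim4+ libraries and at 68.9, 131 and 192 CPM in monocytes, and the groups overlapped.

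Genes induced by interferon formed a further group that was lower in Tim4+ macrophages. Of 31 tested, 24 were lower and none higher, the median log2 difference was -1.3, and their sum was 2720 to 5450 CPM in Tim4+ libraries and 7480 to 9720 CPM in monocytes. Irf7, the factor that amplifies the interferon response, was at 4.4, 19.4 and 59.4 CPM in Tim4+ libraries and at 158, 242 and 297 CPM in monocytes, a log2 difference of -3.53 (SE 0.43, adjusted p = 4.92e-06). Usp18, which trims ISG15 from proteins and damps the receptor, was at 0, 22.2 and 68.6 CPM in Tim4+ libraries and at 154, 271 and 334 CPM in monocytes; pop2 CD replicate 8 was its highest Tim4+ library, and its log2 difference of -3.34 was -5.73 without that library. Oas2 and Ifi27l2a did not pass, with 194 ± 55 and 400 ± 37.4 CPM in Tim4+ macrophages against 165 ± 40 and 385 ± 76.2 CPM in monocytes. For 12 of the members that fell the libraries did not overlap.

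Promoters of this group are shown because many hold the response element through which interferon acts. The 250 bases before the start, in RefSeq promoters of GRCm38.p6, were searched on either strand for GAAA, any 2 bases and GAAA again. A gene counted if any of its promoters held a match. This was so for 9 of the 21 members with a promoter in the table (42.9%), against 3.46% of all 27025 genes there. Among genes with a promoter in the table, the share was 3.37% of those tested, 2.91% of those higher in Tim4+ macrophages and 5.82% of those lower. The windows below run 5′ to 3′ along the gene, with the matches in capitals, up to 25 bases on each side, and a match on the other strand appearing as TTTC, 2 bases and TTTC. Overlapping matches share letters. The 5 windows shown belong to the members with the largest fitted decreases among the 9. A match is a description of the letters and shows no binding.
Ifit1, chr19:34640760-34640838, plus strand: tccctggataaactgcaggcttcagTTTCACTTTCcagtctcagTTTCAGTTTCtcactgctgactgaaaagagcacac
Ifit3, chr19:34583348-34583441, plus strand: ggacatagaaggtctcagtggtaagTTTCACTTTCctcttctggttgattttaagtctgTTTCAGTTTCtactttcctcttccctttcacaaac
Isg15, chr4:156200850-156200921, minus strand: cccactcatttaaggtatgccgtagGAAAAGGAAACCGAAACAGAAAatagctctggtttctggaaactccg
Oas1a, chr5:120907526-120907570, minus strand: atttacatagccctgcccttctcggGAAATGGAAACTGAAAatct
Oas3, chr5:120777700-120777759, minus strand: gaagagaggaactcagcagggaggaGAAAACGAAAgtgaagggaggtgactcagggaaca

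Of these 5, Ifit1, whose protein binds viral RNA ends, was at 3.07, 31.8 and 120 CPM in Tim4+ libraries and at 197, 287 and 420 CPM in monocytes, a log2 difference of -2.78 (SE 0.45, adjusted p = 0.000121). The related Ifit3 differed by -1.5 (SE 0.44, adjusted p = 0.0116). Oas1a and Oas3, which make the messenger that activates RNase L, differed by -1.29 (SE 0.37, adjusted p = 0.00965) and -2.67 (SE 0.73, adjusted p = 0.0077). Isg15, a ubiquitin-like modifier whose window held 3 overlapping matches, the most of the 5, did not pass, with 3.14 ± 6.01 CPM in Tim4+ macrophages and 13.5 ± 10.5 CPM in monocytes (adjusted p = 0.0631). The other 4 members with a match, named after their values were seen, differed by less, with log2 differences of -1.18 for Rsad2, -0.81 for Trim30a, -0.71 for Stat2 and -0.45 for Bst2, which did not pass (adjusted p = 0.351) although its window held 2 matches.

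Transcription factors of macrophages moved in both directions, with 9 of 22 higher and 4 lower, while of 15 factors of monocytes 9 were lower and none higher; under the other scalings 8 of these were lower and 2 higher. Bhlhe41, a repressor of the basic helix-loop-helix family, was at 21.6, 63.8 and 227 CPM in Tim4+ libraries and at 1.38, 2.71 and 4.42 CPM in monocytes, a log2 difference of 4.86 (SE 0.43, adjusted p = 9.82e-08). Nfe2, a blood cell factor best known from platelet formation, was at 0.221, 0.625 and 6.77 CPM in Tim4+ libraries and at 70, 175 and 222 CPM in monocytes, a log2 difference of -7.11 (SE 0.62, adjusted p = 7.64e-08). Runx2 and Runx3 were lower too, at 5.35 ± 2.24 and 2.23 ± 1.51 CPM in Tim4+ macrophages against 88.6 ± 32.3 and 47.6 ± 10.8 CPM in monocytes, while their relative Runx1 did not pass (172 ± 56 CPM in Tim4+ macrophages and 203 ± 50.5 CPM in monocytes). None of the Nfe2, Runx2 and Runx3 groups overlapped.

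Gata6, the factor that defines large macrophages of the peritoneal cavity, was uneven within the Tim4+ cells. It stood at 45.6 and 48.1 CPM in the 2 pop1 CD libraries, at 0.136 to 1.19 CPM in the other 6 Tim4+ libraries and at 0 to 0.372 CPM in monocytes. The same 2 libraries were highest for Alox15, a lipoxygenase of those cells (254 and 315 CPM, against 33.8 and 44.7 CPM in pop1 HFD, 0 to 0.522 CPM in pop2 and 0 to 0.737 CPM in monocytes), and for Tgfb2 (132 and 193 CPM). Factor V (F5) was at 267 and 209 CPM in pop1 CD, 53.4 and 3.56 CPM in pop1 HFD, 1.22 to 2.38 CPM in pop2 and 70.9 to 177 CPM in monocytes. Summed over the 12 genes of peritoneal macrophages, pop1 CD reached 2720 and 2890 CPM, pop1 HFD 663 and 339 CPM, pop2 99.6 to 297 CPM and monocytes 998 to 1310 CPM. Fn1 is in that list and makes up most of the monocyte sum. These genes move with Vsig4 and Fn1 above, and their part in those results was not tested.

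Of 15 genes of MHC class II presentation, 7 were higher in Tim4+ macrophages and 6 lower, and under the other scalings 7 were higher and 4 lower. Chains of the class II molecules were among the higher ones, although pop1 was sorted as MHCII low. H2-Aa, the alpha chain of I-A, was at 380 to 632 CPM in pop1, 1200 to 1650 CPM in pop2 and 225 to 442 CPM in monocytes, and the difference of the pooled Tim4+ gates was 1.4 (SE 0.14, adjusted p = 5.51e-07). H2-Eb1, the beta chain of I-E, was at 93.5 to 409 CPM in pop1, 752 to 885 CPM in pop2 and 12.9 to 54.8 CPM in monocytes, a log2 difference of 3.5 (SE 0.31, adjusted p = 1.06e-07). Every Tim4+ library, pop1 included, was above every monocyte library for H2-Eb1. Cd74, the invariant chain, was at 470 to 572 CPM in pop1, 1180 to 1450 CPM in pop2 and 368 to 552 CPM in monocytes, so the pop1 and monocyte ranges overlapped. H2-DMa, a chain of the peptide-loading molecule, was lower, with 229 ± 112 CPM in Tim4+ macrophages and 399 ± 21 CPM in monocytes. The thiol reductase Ifi30, which opens antigens for class II, fell as well, with 150 ± 33.4 CPM in Tim4+ macrophages and 316 ± 38.6 CPM in monocytes. Class I chains H2-K1 and H2-D1 and their partner B2m did not pass (log2 differences of 0.13, 0.09 and -0.09), while of 13 class I genes 7 were lower, among them the peptide transporter Tap1 at 34.7 ± 14.2 CPM in Tim4+ macrophages and 107 ± 20 CPM in monocytes.

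Iron and heme genes were mostly higher, with 10 of 18 higher and 2 lower. Slc40a1, which encodes ferroportin, the iron exporter, was at 63.4, 222 and 451 CPM in Tim4+ libraries and at 0, 0.245 and 0.919 CPM in monocytes, a log2 difference of 9.73 (SE 0.57, adjusted p = 3.16e-10). Within the Tim4+ cells pop2 HFD was lowest, at 63.4 and 65.8 CPM, and pop2 CD was at 413 CPM in both replicates. The transferrin receptor gene Tfrc, an importer named after its values were seen, averaged 598 ± 128 CPM in Tim4+ macrophages and 33.9 ± 26 CPM in monocytes, so genes for import and export were both higher. Of 30 lysosomal genes 13 were higher and 6 lower, and under the other scalings 14 were higher and 3 or 4 lower. Cd63, a membrane protein of late endosomes, was at 167, 219 and 242 CPM in Tim4+ libraries and at 0, 0.368 and 2.85 CPM in monocytes, a log2 difference of 7.96 (SE 0.65, adjusted p = 3.11e-08). Psap, which serves sphingolipid breakdown, was lower, with 210 ± 35.7 CPM in Tim4+ macrophages against 486 ± 58.4 CPM in monocytes.

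Of 24 genes of lipid handling 8 were higher and 8 lower, and under the other scalings 9 were higher and 6 lower. Fabp4, a fatty acid carrier of fat cells and macrophages, was at 144, 252 and 344 CPM in Tim4+ libraries and at 5.18, 11.4 and 26.3 CPM in monocytes, a log2 difference of 4.31 (SE 0.32, adjusted p = 7.58e-09). Scarb1, the receptor for high-density lipoprotein, was lower, at 6.77 ± 7.28 CPM in Tim4+ macrophages and 77.5 ± 23.9 CPM in monocytes. Trem2, a lipid sensor of foamy macrophages that was named after its values were seen, did not pass, at 122 ± 80.9 CPM in Tim4+ macrophages and 73.7 ± 38.4 CPM in monocytes.

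Among sensing and signalling genes more fell than rose. Of 28 cytokine and receptor genes, 4 were higher and 14 lower. Il1b, which encodes the pyrogenic cytokine interleukin 1 beta, was at 0, 0.404 and 39.9 CPM in Tim4+ libraries and at 108, 217 and 483 CPM in monocytes, a log2 difference of -7.47 (SE 1, adjusted p = 1.43e-05); only pop2 HFD replicate 3, at 39.9 CPM, was above 1 CPM among the Tim4+ libraries. Il10, a cytokine that damps inflammation, was at 0.971, 54.4 and 70 CPM in Tim4+ libraries and at 0, 0 and 0.671 CPM in monocytes, a log2 difference of 8.24 (SE 0.99, adjusted p = 4.42e-06). Il6 was at 0.713, 51.5 and 260 CPM in Tim4+ libraries and at 0, 0 and 5.79 CPM in monocytes, and the groups overlapped. The interleukin 17 receptor subunit Il17ra was lower, at 27.5 ± 19.7 CPM in Tim4+ macrophages and 176 ± 29 CPM in monocytes.

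Among 20 pattern recognition genes, 5 were higher and 8 lower. Tlr4, the receptor for endotoxin, rose to 427 ± 195 CPM in Tim4+ macrophages, against 138 ± 33 CPM in monocytes. Tlr13, which senses bacterial ribosomal RNA, was at 2.2, 16.7 and 122 CPM in Tim4+ libraries and at 292, 389 and 567 CPM in monocytes, a log2 difference of -3.87 (SE 0.5, adjusted p = 1.13e-05). The lectin Clec4e (Mincle) was lower too, at 46.7 ± 63.4 CPM in Tim4+ macrophages and 354 ± 50.1 CPM in monocytes. The neonatal Fc receptor gene Fcgrt, which recycles antibody, was at 406, 484 and 718 CPM in Tim4+ libraries and at 58.2, 79.4 and 139 CPM in monocytes, a log2 difference of 2.61 (SE 0.18, adjusted p = 2.2e-09). Fcgr1, the high-affinity receptor for IgG, fell to 102 ± 61.3 CPM in Tim4+ macrophages, against 254 ± 45.5 CPM in monocytes. In the MS4A family of membrane proteins Ms4a7 was higher (503 ± 133 CPM in Tim4+ macrophages and 120 ± 32.7 CPM in monocytes) and 4 of 8 members were lower, Ms4a4b the most, at 3.36 ± 9.34 CPM in Tim4+ macrophages and 240 ± 50.4 CPM in monocytes. Gpr34, a receptor for lysophosphatidylserine, was at 122, 413 and 857 CPM in Tim4+ libraries and at 31.7, 70.2 and 99.4 CPM in monocytes, a log2 difference of 2.61 (SE 0.38, adjusted p = 3.29e-05).

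The NADPH oxidase and granule proteins, with which phagocytes kill, were lower for 9 of 14 and higher for none. Lcn2, which encodes the iron-trapping protein lipocalin 2, was at 0.221 to 1.6 CPM in Tim4+ libraries and 0 to 105 CPM in monocytes. The oxidase subunit genes Cyba and Ncf1 did not pass, with 368 ± 87.2 and 257 ± 93.2 CPM in Tim4+ macrophages against 410 ± 42.3 and 213 ± 25.1 CPM in monocytes. Purinergic receptors, which sense nucleotides released by stressed cells, were higher for 5 of 14 and lower for 4. Entpd1 (CD39), the ectoenzyme that degrades extracellular ATP, was at 210, 296 and 464 CPM in Tim4+ libraries and at 55.3, 90.5 and 203 CPM in monocytes, a log2 difference of 1.56 (SE 0.25, adjusted p = 0.000102). P2ry1, a receptor for ADP, was lower, at 17.8 ± 37.7 CPM in Tim4+ macrophages and 108 ± 50.2 CPM in monocytes.

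Of 18 glycolysis genes 8 were lower and none higher, led by the glucose transporter Slc2a6 at 3.47 ± 4.22 CPM in Tim4+ macrophages and 77.1 ± 26.4 CPM in monocytes. Of 26 genes of oxidative phosphorylation 8 were lower and 1 higher, and with the other scalings 7 or 8 were lower and 3 to 6 higher, so no direction is given for them. Proliferation genes were mixed, with 6 of 19 higher and 3 lower. Mki67, a marker of cycling cells, was at 6.83 ± 4.36 CPM in Tim4+ macrophages and 22.4 ± 10.9 CPM in monocytes, whereas Mcm3, a subunit of the replication helicase, was at 53.3 ± 21.1 CPM in Tim4+ macrophages and 8.17 ± 5.18 CPM in monocytes. Immediate early genes, which rise within minutes when cells are handled, were counted together with heat shock genes. Of these 19 genes 7 were higher and 4 lower, or 2 lower when scaled to library totals. Egr2 was at 75.1 ± 41.6 CPM in Tim4+ macrophages and 1.28 ± 2.32 CPM in monocytes, Btg2 went down to 114 ± 39.5 CPM in Tim4+ macrophages against 348 ± 64.1 CPM in monocytes, and Fos did not pass (273 ± 79.7 CPM in Tim4+ macrophages and 315 ± 97 CPM in monocytes).

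**Figure D3:**
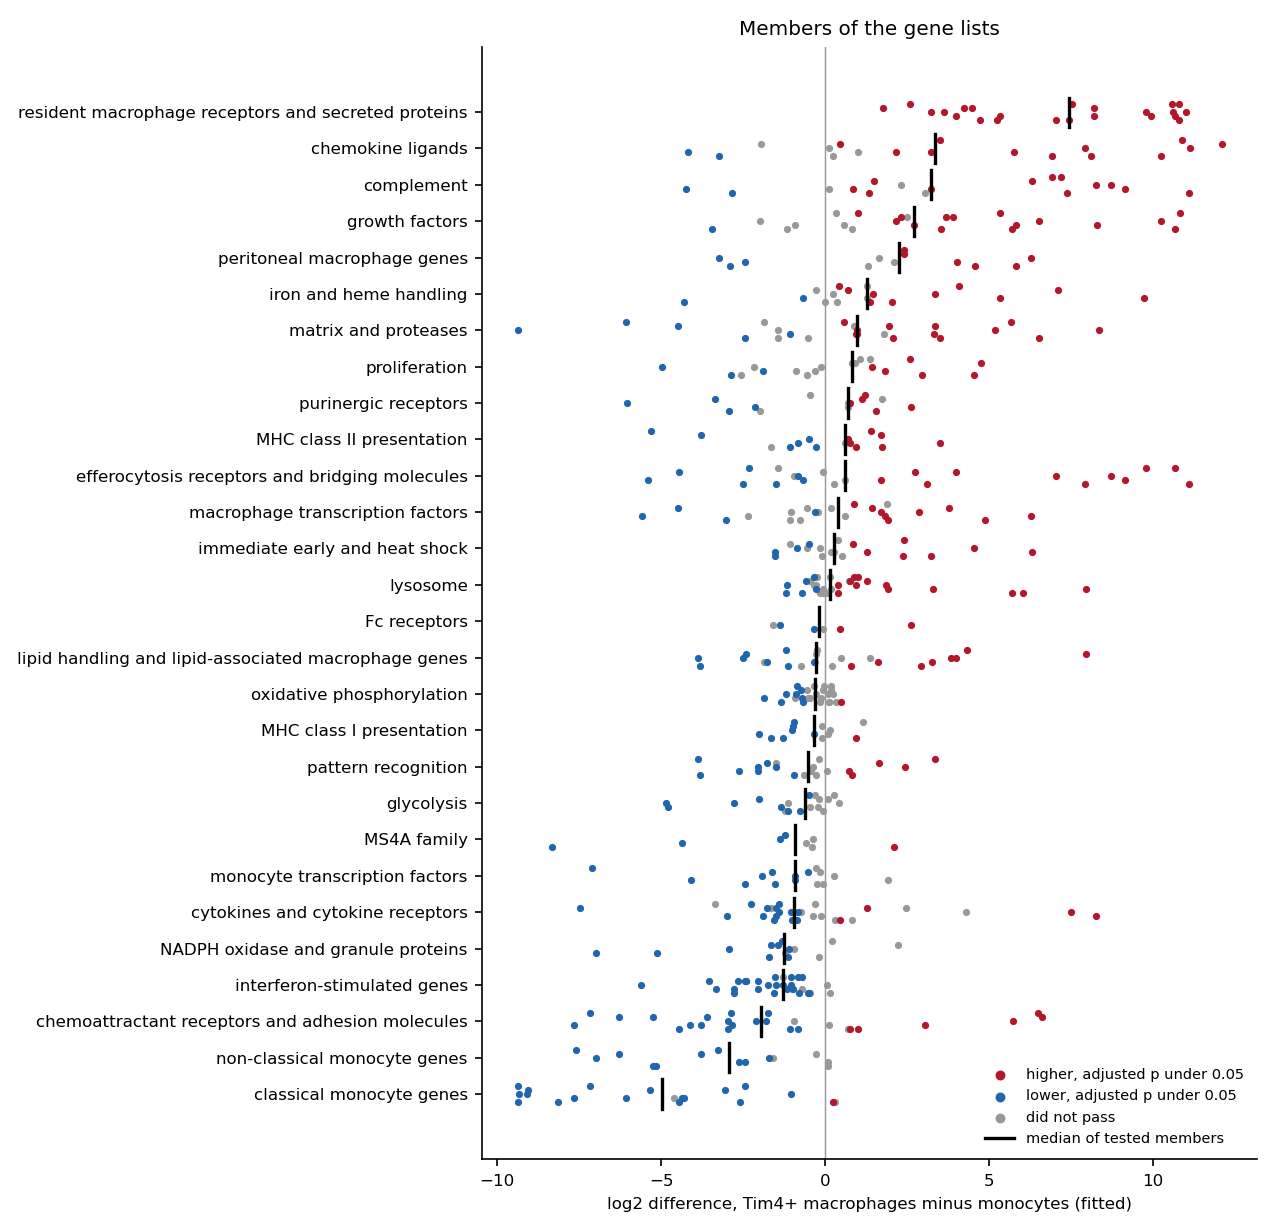
Fitted log2 difference (Tim4+ macrophages minus monocytes) of each tested member of the gene lists, 1 row a list, sorted by the list's median, which the black bar marks; red points were called higher, blue points lower and grey points did not pass. The resident macrophage list has its median at 7.43 and no blue point, and the classical monocyte list has its median at -4.98 with 1 red point.

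Few genes passed between the 2 Tim4+ gates in edgeR's test. Between pop1 and pop2, fitted on the same 17 libraries, 26 genes passed (0.167% of those tested), 13 (0.0833%) in each direction, and 53 without pop2 CD replicate 8. DESeq2's test called 228 higher and 209 lower. Genes of class II presentation, which follow the sort, were among those lower in pop1: H2-Ab1 averaged 275 ± 104 CPM in pop1 and 923 ± 114 CPM in pop2, a log2 difference of -1.77 (SE 0.27, adjusted p = 0.00622). H2-Aa differed by -1.41 (SE 0.21, adjusted p = 0.00486) and Cd74 by -1.22 (SE 0.14, adjusted p = 0.000998). Of the 12 peritoneal macrophage genes, 3 were higher in pop1 and 0 lower. Alox15 was at 162 ± 144 CPM in pop1 and 0.299 ± 0.245 CPM in pop2 (log2 difference 8.63, SE 1.13, adjusted p = 0.00198). F5 was at 133 ± 125 and 1.73 ± 0.553 CPM in the same order (log2 difference 6.03, SE 0.88, adjusted p = 0.00421). The matrix protein Thbs1 was at 250 ± 164 and 3.79 ± 3.88 CPM (log2 difference 6.07, SE 1.03, adjusted p = 0.0137). For Alox15 and F5 the pop1 CD libraries were the highest, as given above. Timd4 did not pass between the gates (log2 difference 0.86, SE 0.43, adjusted p = 0.635), and neither did Lyve1 (0.2, SE 0.31, adjusted p = 0.94) or Pdgfc (0.14, SE 0.47, adjusted p = 0.977). A p that misses the threshold does not show that the gates are alike.

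The difference between Tim4+ macrophages and monocytes was also set between the diets, HFD against CD. The interaction of diet with cell type passed for 211 genes (1.35%), 15 (0.0962%) with a higher and 196 (1.26%) with a lower difference on HFD, while no gene passed for a diet effect common to all 3 populations in edgeR's test (1630 had an unadjusted p under 0.05). DESeq2's test called 362 genes higher and 488 lower in the interaction. Among the 238 genes that the naming rule selected 17 passed, all lower, and 5 of them, Cd68, Gpr34, Fn1, Clec4e and C1qc, kept the call when any single library was left out. With pop1 and monocytes alone 14 of the 17 lost the call, Cd68, Gpr34 and C1qc among them, with pop2 and monocytes alone 3, Clec4e among them, and with no filter on low counts 10, Clec4e and C1qc among them. In a fit with the replicate number as a block all 17 lost it. Cd68, an endosomal glycoprotein of macrophages, averaged 275 ± 13.7 CPM in pop1 HFD and 489 ± 68.7 CPM in pop1 CD, 162 ± 1.87 CPM in pop2 HFD and 657 ± 85.9 CPM in pop2 CD, and 626 ± 48.3 CPM in monocytes HFD and 637 ± 68.4 CPM in monocytes CD (n = 2 in each Tim4+ group, 3 and 6 in monocytes). Both gates were lower on HFD, without overlap, and the interaction was -1.4 (SE 0.17, adjusted p = 0.000725) on the log2 scale. Gpr34 averaged 268 ± 23.4 CPM in pop1 HFD and 614 ± 104 CPM in pop1 CD, 125 ± 3.91 CPM in pop2 HFD and 783 ± 104 CPM in pop2 CD, and 82.1 ± 13.1 CPM in monocytes HFD and 59.6 ± 27 CPM in monocytes CD, an interaction of -2.38 (SE 0.42, adjusted p = 0.00996). Fn1 averaged 185 ± 85.2 CPM in pop1 HFD and 664 ± 27.4 CPM in pop1 CD, and 21.7 ± 10.9 CPM in pop2 HFD and 145 ± 124 CPM in pop2 CD, an interaction of -2.39 (SE 0.44, adjusted p = 0.014).

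Clec4e also passed (-5.46, SE 1.03, adjusted p = 0.0149), with levels under 5 CPM in the 4 Tim4+ HFD libraries, at 143 and 91.6 CPM in pop1 CD, and at 1.32 and 129 CPM in pop2 CD. Without pop2 CD replicate 8 the value was -2.61. For C1qc, with an interaction of -4.54 (SE 0.8, adjusted p = 0.00979), it was the monocytes that differed between diets: they held 21.1, 12.6 and 0.942 CPM on HFD and 0.114 to 1.35 CPM on CD, while the Tim4+ groups averaged between 907 and 1160 CPM on both diets. Adgre1 passed as well (-1.08, SE 0.21, adjusted p = 0.0153), with 317 ± 38.1 CPM in pop1 HFD and 553 ± 20.5 CPM in pop1 CD, and 414 ± 31.8 CPM in pop2 HFD and 750 ± 221 CPM in pop2 CD, but it lost the call without monocyte HFD replicate 2, pop2 CD replicate 7 or pop2 HFD replicate 3 (adjusted p from 0.051 to 0.105). All adipose CD libraries carry the title CD-CD and the HFD libraries do not, so in Tim4+ cells diet and title series cannot be told apart. Left out one at a time, 8 libraries moved the total of 211 by over 1.5 times: it was 102 and 111 without monocyte HFD replicates 1 and 2, 136 and 132 without monocyte CD replicates 3 and 8, 139 and 113 without pop2 CD replicates 7 and 8, 352 without pop1 HFD replicate 2 and 601 without pop2 HFD replicate 2. The totals without a Tim4+ library also came from a looser filter, as for Csf1r above. Fitted with 1 gate at a time, 65 genes were lower in the interaction with pop1 and 449 with pop2.

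**Figure D4:**
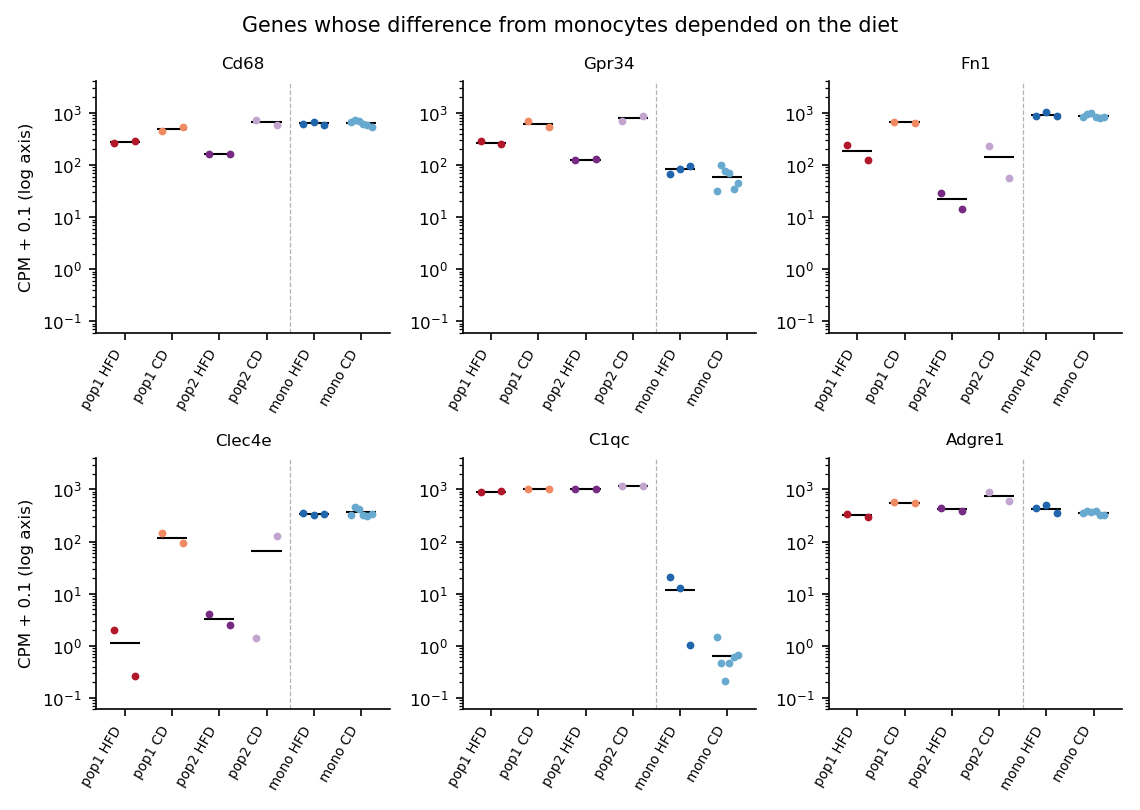
Level of 6 genes that passed the interaction of diet with cell type, in each library (CPM + 0.1, log axis), with HFD left of CD in each population; each point is 1 library and each bar a group mean. Cd68 and Gpr34 are lower in the 4 Tim4+ HFD libraries than in the 4 Tim4+ CD libraries, while C1qc differs between the monocyte groups.

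Set against the Tim4- macrophages of the same tissue, which were digested in the same way, several of the leading genes were also abundant in pop3. In a fit of all 25 libraries, 181 of 16961 genes (1.07%) passed between Tim4+ cells and pop3, 18 (0.106%) higher and 163 (0.961%) lower, and 3439 (20.3%) passed between Tim4+ cells and pop4, 1906 (11.2%) higher and 1533 (9.04%) lower. Without pop3 HFD replicate 3 the total against pop3 was 120, and the total against pop4 was 2034, 1763 and 2183 without pop4 CD replicate 8 and pop4 HFD replicates 2 and 3. Timd4 averaged 376 ± 206 CPM in Tim4+ macrophages, 3.28 ± 5.75 CPM in pop3 and 2.72 ± 5.27 CPM in pop4, with log2 differences of 7.48 (SE 1.04, adjusted p = 0.000159) from pop3 and 7.84 (SE 1.06, adjusted p = 1.09e-05) from pop4. Pdgfc averaged 268 ± 63.2 CPM in Tim4+ macrophages, 128 ± 57.4 CPM in pop3 and 10.6 ± 11.9 CPM in pop4; it passed against pop4 (4.77, SE 0.79, adjusted p = 0.000129) and not against pop3 (1.12, SE 0.63, adjusted p = 0.527). Dab2 averaged 1290 ± 280 CPM in Tim4+ macrophages, 1280 ± 313 CPM in pop3 and 584 ± 52 CPM in pop4, and did not pass against pop3 (0.02, SE 0.21, adjusted p = 0.992). Lyve1 averaged 760 ± 177 CPM in Tim4+ macrophages, 435 ± 155 CPM in pop3 and 5.3 ± 7.49 CPM in pop4. Vsig4 averaged 165 ± 149 CPM in Tim4+ macrophages, 22.7 ± 42.7 CPM in pop3 and 0.0309 ± 0.0618 CPM in pop4 (log2 difference 11.26, SE 1.54, adjusted p = 1.24e-05 from pop4). Slc40a1 averaged 250 ± 163 CPM in Tim4+ macrophages, 211 ± 180 CPM in pop3 and 7.43 ± 14.5 CPM in pop4.

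Some genes that were low against monocytes were also low against pop3. Itgax averaged 1.23 ± 0.852 CPM in Tim4+ macrophages, 20.1 ± 18.4 CPM in pop3 and 185 ± 5.06 CPM in pop4, with log2 differences of -4.02 (SE 0.8, adjusted p = 0.00996) from pop3 and -7.29 (SE 0.85, adjusted p = 1.55e-06) from pop4. Cx3cr1 averaged 3.56 ± 4.05 CPM in Tim4+ macrophages, 53.3 ± 93.6 CPM in pop3 and 17.4 ± 5.91 CPM in pop4; its difference from pop3 (-3.73, SE 0.85, adjusted p = 0.0266) lost the call without pop1 CD replicate 8 or pop3 CD replicate 8 (adjusted p = 0.0553 and 0.641). Mki67 averaged 6.82 ± 4.34 CPM in Tim4+ macrophages and 84.8 ± 52 CPM in pop3, a log2 difference of -3.73 (SE 0.5, adjusted p = 0.000101). The comparisons with monocytes, pop3 and pop4 share the Tim4+ libraries, so their values stand side by side and are not independent.

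Markers of other cells differed between the groups. Adipocyte markers summed to 148 to 710 CPM in Tim4+ libraries and 3.31 to 11 CPM in monocytes, with 8 of 9 higher. With the odour and pheromone receptor sum as a covariate 5 of the 9 were higher. A filter of 5 CPM in 8 libraries kept only 2 of these markers, with 1 higher. Adiponectin (Adipoq) was at 0.4 to 176 CPM in Tim4+ libraries, against 0 to 0.376 CPM in monocytes, and Retn, which encodes resistin, had no count in 2 Tim4+ libraries. Stromal progenitor markers summed to 49.2 to 724 CPM in Tim4+ libraries and 16.8 to 66.6 CPM in monocytes, with 6 of 9 higher and 1 lower. With the same covariate 2 of the 9 were higher and 0 lower. The same filter kept only 2 stromal markers, with 0 higher and 1 lower. Decorin (Dcn), a defining matrix gene of stroma, was at 3 to 506 CPM in Tim4+ libraries. Endothelial markers summed to 6.4 to 59.7 CPM in Tim4+ libraries and 1.36 to 61.2 CPM in monocytes, with 6 of 8 higher and 1 lower and a median log2 difference of 2.67. Of these 6, 4 averaged under 5 CPM in Tim4+ macrophages, and the libraries overlapped for all 6. With the odour and pheromone receptor sum as a covariate, 0 of the 8 were higher and 1 lower. The part of these cells in the results was not tested.

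Platelet marker sums were higher in every monocyte library than in any Tim4+ library, while the ranges of red cell, T cell and NK cell markers overlapped. Red cell markers summed to 2.27 to 648 CPM in Tim4+ libraries and 396 to 1400 CPM in monocytes, and platelet markers to 3.4 to 105 and 109 to 415 CPM in the same order. T cell markers summed to 7.62 to 149 CPM in Tim4+ libraries and 0.736 to 240 CPM in monocytes, and NK cell markers to 1.1 to 10.7 and 0.368 to 206 CPM. Nkg7, a granule gene of NK and T cells, was at most 0.713 CPM in Tim4+ libraries, and in monocytes it was under 0.3 CPM in HFD replicate 1 and CD replicates 1 and 2 and at 51.6 to 129 CPM in the other 6. T and NK cells also express Ms4a4b, and the part of these blood cells in its level and in the other results was not tested. Of dendritic cell markers, Flt3 and Dpp4 were lower (1.3 ± 0.926 and 1.88 ± 1.65 CPM in Tim4+ macrophages, 37.3 ± 16.6 and 129 ± 45.4 CPM in monocytes), Siglech, a lectin of plasmacytoid cells, was higher (140 ± 121 CPM in Tim4+ macrophages and 3.86 ± 9.46 CPM in monocytes), and Cd209a did not pass (630 ± 177 CPM in Tim4+ macrophages and 425 ± 174 CPM in monocytes). The T cell costimulator Cd28 was the one marker of its list above 10 CPM in Tim4+ macrophages, at 1.9, 18.3 and 143 CPM in Tim4+ libraries and 0.115, 0.369 and 1.73 CPM in monocytes, while Cd3g was at most 0.809 CPM in Tim4+ libraries.

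**Figure D5:**
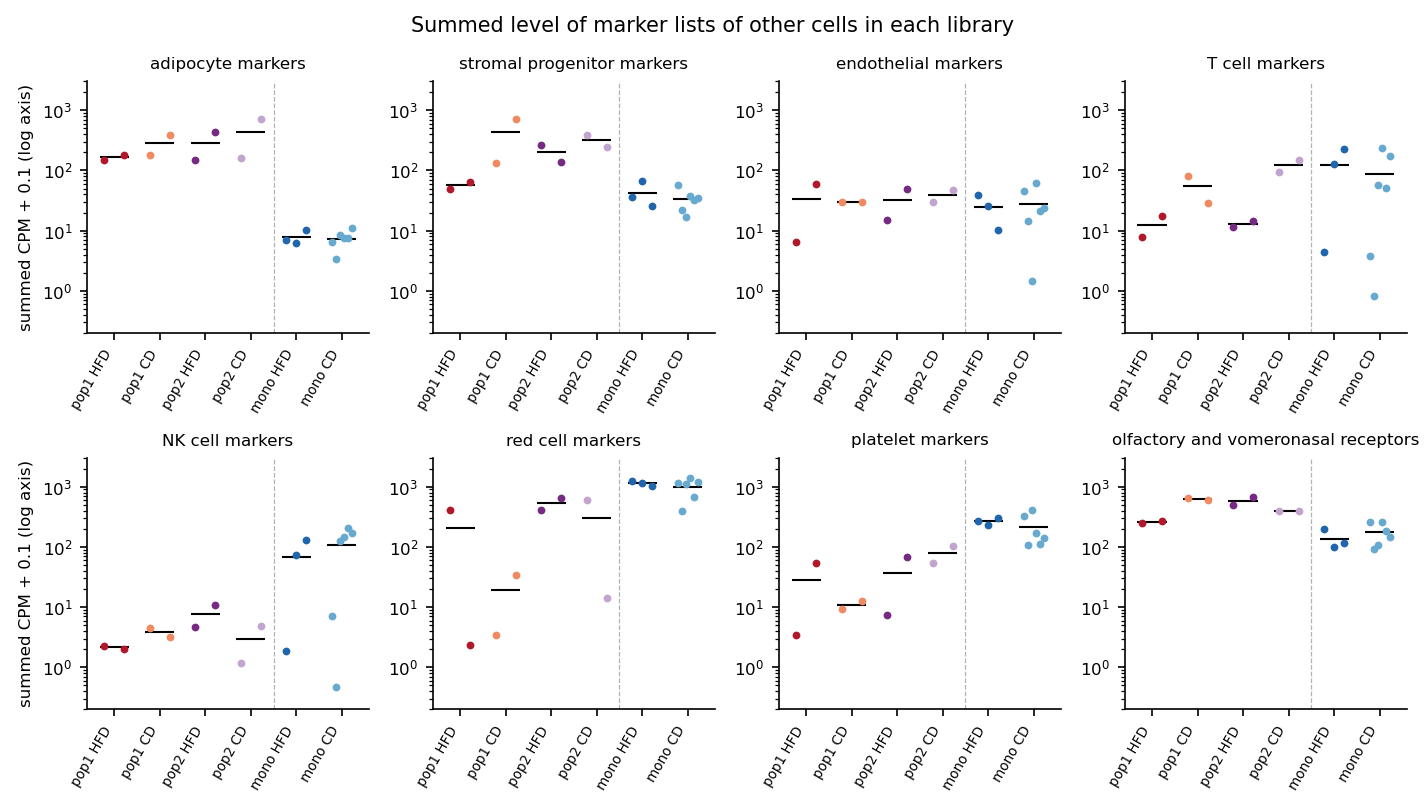
Summed level of marker lists of other cells, and of odour and pheromone receptor genes, in each library (CPM + 0.1, log axis); each point is 1 library and each bar a group mean, with Tim4+ libraries left of the dashed line and monocytes right of it. Adipocyte markers sum to at least 148 CPM in Tim4+ libraries and at most 11 CPM in monocytes, while NK cell markers reach 206 CPM in some monocyte libraries.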

How the data were processed

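The authors deposited a table of raw read counts per gene, with 24537 genes, for libraries of 200 sorted cells; per the submitters' processing notes STAR 2.5.3a, HOMER and the mouse build mm10 were used. Strandedness and the treatment of reads that map to several places are not given in the sources used here, so close copies may share reads. Read depth was 3.75 to 6.63 M counts in Tim4+ libraries and 6.5 to 9.34 M in monocytes; CPM levels are these counts over TMM-scaled library sizes.

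From the counts, genes kept by edgeR's default expression filter were fitted with its robust quasi-likelihood model (edgeR 4.0.16, limma 3.58.1, R 4.3.3), with a mean for pop1, pop2 and monocytes and an additive diet term; the test was the mean of pop1 and pop2 minus monocytes, with Benjamini-Hochberg adjustment over all genes tested and a threshold of 0.05. The diet interaction used 6 group means, and pop3 and pop4 entered a fit of all 25 libraries. Alternatives included DESeq2 1.42.0, other scalings and filters, subsets, and each library left out. Without any one adipose library a group held a single library, so the filter kept more genes and the scaling changed as well. In a simulation on 14370 genes the main test recovered 28% of 2-fold, 72% of 4-fold and 96% of 8-fold changes. Only 200 genes averaging at least 10 CPM were changed there, all others were equal, and both groups had the same spread. The data differ from this in the share of genes called, in spread and in level, so these rates need not hold for them.

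Named genes were the gate genes, Pdgfc, the 10 leading genes per direction with libraries that did not overlap and at least 20 CPM, up to 3 list members per direction with at least 10 CPM, and list members of at least 100 CPM that did not pass; a few genes that meet this rule are not reported here. The gene lists and members were chosen with earlier results of these data known. No pair of libraries differed by as little as sampling noise.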

Additional observations from a re-analysis of the deposited data

Results flagged for a closer look

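For the genes whose levels are given above, 1 library stood apart from the rest of its group in 41 of 238 sets of Tim4+ or monocyte libraries, by the gap to its nearest neighbour over the range of the group. The cutoff gives about 1 in 20 such sets for samples from a single normal distribution. CPM levels pooled over diets, and over gates in Tim4+ cells, need not meet this, so the rate is no yardstick here. Genes near 0 in a group are sensitive to single counts. None of these values was explained here.

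Among Tim4+ macrophages pop2 CD replicate 8 was the highest library for Adipoq at 176 CPM, Axl at 343 CPM, Cd28 at 143 CPM, Cxcl10 at 79.7 CPM, Gdf3 at 4.7 CPM, Ly6c1 at 67.9 CPM and P2ry1 at 111 CPM. The same library had the highest summed adipocyte markers. Replicate 7 of pop2 CD was highest for Gpr141 at 24.1 CPM, Havcr2 at 7.95 CPM and Plac8 at 5.74 CPM. In pop2 HFD, replicate 3 stood apart for Cd177 at 4.04 CPM, Cyba at 571 CPM, Il1b at 39.9 CPM and Mmp8 at 3.33 CPM, and replicate 2 for Nr4a1 at 78 CPM. In pop1 CD, replicate 7 stood apart for Bhlhe41 at 227 CPM, Nfe2 at 6.77 CPM, Stk26 at 1.46 CPM and Vcan at 35.3 CPM, and replicate 8 for Ms4a4b at 26.5 CPM and Pglyrp1 at 7.13 CPM.

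Among monocytes, HFD replicate 1 stood apart for Cd163 at 52.1 CPM, Cd209f at 1 CPM and Mmp13 at 0.627 CPM. HFD replicate 2 stood apart for Btg2 at 199 CPM, Il10 at 0.671 CPM, Ly6c2 at 657 CPM and Vsig4 at 0.336 CPM. CD replicate 3 stood apart for C1qb at 6.13 CPM, Fos at 533 CPM, Il6 at 5.79 CPM and Thbs1 at 375 CPM. CD replicate 6 stood apart for Cd28 at 1.73 CPM, Ms4a4b at 361 CPM, Pla2g2d at 0.74 CPM and Tgfb2 at 0.864 CPM. CD replicate 2 stood apart for Pglyrp1 at 137 CPM and Spi1 at 330 CPM, CD replicate 1 for Mertk at 1.11 CPM, CD replicate 7 for Fcgrt at 139 CPM and CD replicate 8 for Siglech at 28.8 CPM.

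The interaction of diet (HFD against CD) with cell type passed edgeR's test for 6 of the genes described. On the log2 scale it was -1.08 for Adgre1, -4.54 for C1qc, -1.40 for Cd68, -5.46 for Clec4e, -2.39 for Fn1 and -2.38 for Gpr34. Adgre1 lost the call without any one of 3 libraries. In a fit with the replicate number as a block all 6 lost it. In Tim4+ cells diet and title series cannot be told apart.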

How the results depend on the processing

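The main comparison called 4274 genes higher and 2661 lower in Tim4+ macrophages. Requiring 5 CPM in 8 libraries gave 1796 and 1708, over fewer genes tested. A test against a 2-fold difference gave 2123 and 968. CD libraries alone gave 1880 higher, HFD libraries alone 1413 higher and 1447 lower, pop1 alone 2577 higher, pop2 alone 2842 higher, and leaving out both pop2 HFD libraries, chosen after seeing the data, 2518 higher. With the odour and pheromone receptor sum as a covariate the counts were 642 and 578, Gata6 changed to -0.21 and Lcn2 to 0.85; with pop2 alone H2-DMb1 changed to 0.07. The cause of these changes of direction was not tested. DESeq2 size factors, upper-quartile factors, library totals, no filter, 25 libraries, 6 group means and DESeq2's own test kept both counts within 1.5 times. With only those monocyte controls whose title is CD-CD, 3192 genes were higher and 2589 lower. In that fit 10 genes of the naming rule lost their call and 1 gained it.

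The interaction called 15 genes higher and 196 lower. No filter gave 6 and 85, DESeq2 362 and 488, pop1 alone 65 lower, and pop2 alone 64 and 449, the last 2 chosen after seeing the data. Between pop1 and pop2 DESeq2 gave 228 higher and 209 lower, against 13 each. Against pop3 no filter gave 11 higher, and DESeq2 293 higher and 405 lower, against 18 and 163. Against pop4 DESeq2 gave 4069 higher, against 1906.

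Leaving out 1 library at a time gave 3236 to 4554 higher and 2395 to 3344 lower in the main comparison, 6 to 47 and 96 to 554 in the interaction, 10 to 39 and 11 to 21 between pop1 and pop2, 7 to 29 and 100 to 192 against pop3, and 803 to 2432 and 960 to 1785 against pop4.

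Libraries with the same replicate number did not deviate together (correlations of -0.01 to 0.03 over 12 pairs). A fit with the replicate number as a block gave 1901 higher and 1573 lower in the main comparison, 0 and 0 in the interaction (none of the 17 named genes) and between pop1 and pop2, and 6 and 76 against pop3; against pop4 it stayed within 1.5 times. At an unadjusted p under 0.05, without the block, 2223 genes passed in the interaction and 1277 between pop1 and pop2. Depth limits genes under the floor of 3 counts, whose fitted differences depend on the prior count.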

Other observations

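The clustered protocadherins, adhesion proteins best known from neurons, were higher in Tim4+ macrophages than in monocytes for most genes tested; they were picked after their values were seen. All 14 genes of the alpha cluster were higher, with means of 103 to 106 CPM in Tim4+ macrophages and 0.218 to 0.297 CPM in monocytes, and log2 differences of 8.55 to 8.96. The median gene of the cluster ran from 2.85 CPM in pop2 HFD replicate 3 and 26 CPM in pop2 HFD replicate 2 to 199 CPM in pop1 HFD replicate 3. In pop3 these genes averaged 5.77 to 6.47 CPM and in pop4 0.098 to 0.411 CPM. All 22 genes of the gamma cluster were higher as well, with means of 30.4 to 36.3 CPM in Tim4+ macrophages and 0.349 to 1.67 CPM in monocytes, and log2 differences of 4.47 to 6.12. They averaged 13.7 to 18.6 CPM in pop3 and 0.871 to 1.2 CPM in pop4. Of 8 tested genes of the beta cluster 7 were higher, with means of 0.279 to 8.12 CPM in Tim4+ macrophages over the 22 genes of the table and log2 differences of 1.77 to 4.18. Genes of the alpha cluster share their last exons, as do those of the gamma cluster, so the same reads may be counted for each, and the number of genes called is no count of independent genes.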
